A study of Saccharomyces cerevisiae with 8 samples.

Results

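In 887 of the 6002 protein-coding genes of budding yeast, peaks of capped RNA ends had their summit inside the gene on the strand opposite to it. A peak of the cap analysis of gene expression (CAGE) was taken as antisense when its summit lay inside a protein-coding gene of the other strand and inside no annotated gene of its own strand. It also had to leave free every window from 300 bp before to 100 bp after a gene's 5′ end on its own strand. Over 8 libraries the rule took 1726 peaks, which merged among themselves into 990 regions. Native nuclear peaks of all classes, merged together, formed 6963 regions. A library held 175 to 250 antisense peaks among 2995 to 3367 peaks on native chromosomes, a share of 6.91% ± 0.837 (SD, n = 8).

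BY4741, a standard haploid laboratory strain of mating type a, was the host of each construct, and every strain carried a synthetic sequence of the human HPRT1 locus. The 4 groups, with 2 libraries each, were synHPRT1R on a yeast artificial chromosome (YAC), synHPRT1R integrated on chromosome XI, synHPRT1 on a YAC and synHPRT1 integrated on chromosome XI. Cultures with a YAC grew in SC-Leu, those with the integrated sequence in YPD, so context and medium cannot be told apart, and all were kept at 30 °C for 6 h from an optical density of 0.1 to about 0.6. The stated purpose was to see if yeast transcribes the synthetic DNA, with native chromosomes as the comparison, and the peaks described here are native ones. Whether the 2 replicates of a group came from separate cultures is not stated, and each p-value therefore measures only how much these libraries spread, possibly for technical reasons.

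Yeast genes are packed closely, and many promoters fire on both strands, so that a non-coding RNA leaves the promoter region of one gene and runs back through its neighbour. Such RNAs are known as stable unannotated transcripts, cryptic unstable transcripts and Xrn1-sensitive transcripts. The cryptic unstable ones are removed by the nuclear exosome with the Nrd1-Nab3-Sen1 termination complex, and the Xrn1-sensitive ones by the cytoplasmic exonuclease Xrn1. Inside gene bodies, methylation of histone H3 by Set2 and deacetylation by the Rpd3S complex keep cryptic starts low. CAGE reads the capped end of RNA at steady state, and fewer starts cannot be told apart from faster decay.

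In the deposited lists no peak was narrower than 200 bp, and the median antisense peak was 200 bp wide in every library. The base change typical of yeast starts is a pyrimidine followed by a purine at the first transcribed base. It stood at the 5′ edge of most antisense peaks, and this edge is used below as the position of the capped end. The edge meant throughout lies 1 base inside the outermost base of the peak as listed. With that outermost base as the purine, 8.72% of antisense peaks had the pair, against 72.1% at the edge used. The sequences around that edge are shown for the regions outside repeats that had a peak in all 8 libraries (HOS4, NUD1, WSC4, LCL1, YDR274C) and for those that separated the groups (FZF1, PTK1), because the named results rest on them. Each runs 5′ to 3′ on the antisense strand, with 70 bases before the edge and 30 from the edge on, read from the RefSeq R64 (sacCer3) genome. Capitals mark the pyrimidine-purine pair whose purine is the edge, TATAAA on either strand, and runs of 7 A on either strand. For LCL1 the bases at the edge were not such a pair.
HOS4, chrIX:154902-155001, minus strand: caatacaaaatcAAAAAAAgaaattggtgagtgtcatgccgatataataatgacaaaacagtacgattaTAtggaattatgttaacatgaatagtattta
NUD1, chrXV:1039380-1039479, minus strand: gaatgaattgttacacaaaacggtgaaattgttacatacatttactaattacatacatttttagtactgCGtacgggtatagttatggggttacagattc
WSC4, chrVIII:50511-50610, minus strand: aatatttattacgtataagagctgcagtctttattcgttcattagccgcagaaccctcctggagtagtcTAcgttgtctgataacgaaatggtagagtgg
LCL1, chrXVI:453331-453430, plus strand: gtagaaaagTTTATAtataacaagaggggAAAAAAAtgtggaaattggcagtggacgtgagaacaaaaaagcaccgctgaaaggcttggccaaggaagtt
YDR274C, chrIV:1011513-1011612, plus strand: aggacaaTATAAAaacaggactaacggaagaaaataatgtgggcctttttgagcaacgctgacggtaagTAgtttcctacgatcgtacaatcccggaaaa
FZF1, chrVII:23129-23228, minus strand: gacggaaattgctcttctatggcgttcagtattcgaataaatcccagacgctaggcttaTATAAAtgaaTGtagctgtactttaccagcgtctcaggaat
PTK1, chrXI:69729-69828, plus strand: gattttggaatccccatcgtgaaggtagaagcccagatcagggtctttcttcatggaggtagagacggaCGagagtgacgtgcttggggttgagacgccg

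The edge was fixed to a few bases in some of these regions and spread in others. At NUD1 the edges of the 8 libraries spanned 8 bp, and 7 of them lay within 3 bp of the position shown. LCL1 also spanned 8 bp, with 5 of 8 libraries within 3 bp. At WSC4 the edges were spread over 108 bp, at YDR274C over 67 bp and at HOS4 over 57 bp, so the line printed for these is the most frequent edge and not the start in each library.

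Over all antisense peaks, 72.1% had the pyrimidine-purine pair at the 5′ edge, against 52.7% of sense peaks inside gene bodies. The difference was 19.4 ± 2.38 percentage points (SD, n = 8), above 0 in 8 of 8 libraries (exact sign-flip permutation test, two-sided, p = 0.00781, the smallest that 8 libraries allow). Peaks at gene starts had the pair in 75.5%, and the antisense share differed from that by -3.34 ± 2.33 points, below 0 in 7 of 8 libraries (exact p = 0.0234). Intergenic peaks had it in 74.6% (difference -2.52 ± 3.52, exact p = 0.0781). Among all positions of the genome 23.2% hold the pair. This comparison was chosen after the data were seen. Antisense peaks outside Ty and YRF1 hosts, both repeated genes, had the pair in 74.3% ± 1.93, those in Ty hosts in 54.7% and those in YRF1 hosts in 65.0%.

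**Figure D1:**
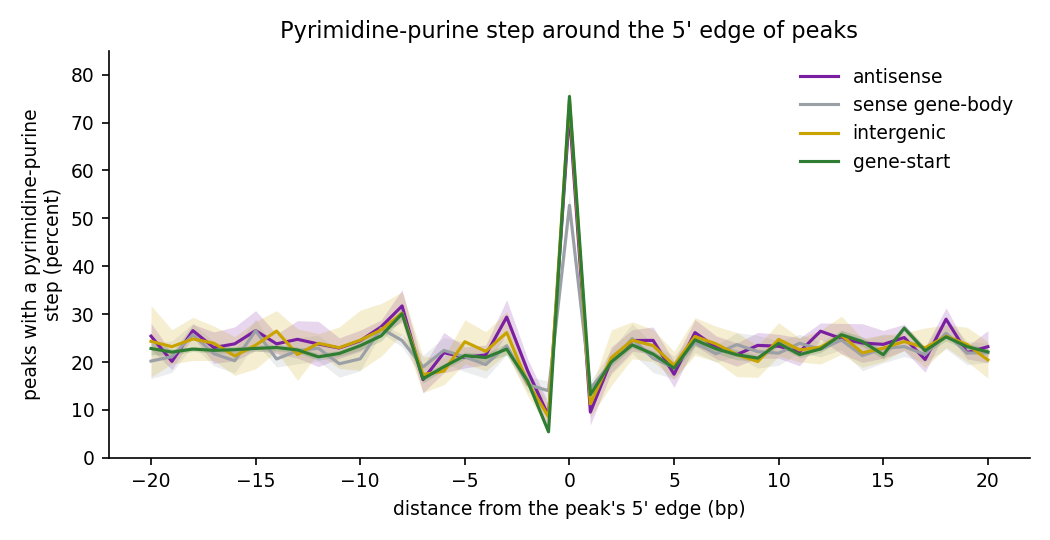
Share of peaks (percent, mean over 8 libraries, band 1 SD) with a pyrimidine-purine pair at each distance (bp) from the 5′ edge of the peak, by class. At distance 0 antisense peaks stand at 72.1%, sense gene-body peaks at 52.7% and gene-start peaks at 75.5%. At -1 bp the same classes stand at 8.72%, 14.0% and 5.43%, and at 1 bp at 9.55%, 14.5% and 13.2%. Antisense peaks stand at 31.7% at -8 bp. At most other distances the classes lie nearer the genome's 23.2%.

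Sequence before the edge was searched over 120 bp on both strands, with 1 window per merged region. TATAAA, the core of the TATA box, was found before 18.6% of antisense regions, 8.63% of sense gene-body regions, 24.5% of intergenic regions, 26.4% of gene-start regions and 12.8% of windows of the same length tiled over the genome. AAAAAAA, a run that disfavours nucleosomes in yeast, was found before 15.7% of antisense, 7.78% of sense gene-body, 27.2% of intergenic and 32.6% of gene-start regions and in 11.1% of genome windows. TTACCCG, the core bound by the general regulatory factor Reb1, was before 1.92% of antisense regions, 0.425% of sense gene-body, 1.94% of intergenic and 5.27% of gene-start regions, and in 0.735% of genome windows. These are descriptions without a test, and the windows also differed in base composition, with 61.8% A or T in antisense, 64.8% in gene-start and 61.7% in genome windows. In the 403 antisense regions within 300 bp of the host's 3′ end, where the next gene lies on the host's strand, the shares were 26.8% for TATAAA and 25.3% for AAAAAAA, with 64.4% A or T. These 403 held 108 of the 184 antisense regions with TATAAA and 102 of the 155 with AAAAAAA. In the remaining antisense regions the shares were thus below 18.6% and 15.7%.

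Antisense peaks were densest at the 3′ end of genes. Summits were counted per kb of sequence that the rule leaves eligible, over all protein-coding genes, with or without a peak. The last 25% of gene length held 0.0438 ± 0.00747 summits per kb and the rest of the gene 0.0188 ± 0.00275 (SD, n = 8), a ratio of 2.34 ± 0.299 that lay between 1.86 and 2.68 (difference 0.0251, above 0 in 8 of 8 libraries, exact sign-flip permutation p = 0.00781). Over 10 equal bins of gene length, the density was 0.0594 in the last bin and 0.0131 to 0.0204 from the second to the seventh. In the first bin it was 0.0363, so the 5′ end of genes was also above their middle. With the 5′ edge in place of the summit, over the same eligible sequence, the difference between the last 25% and the rest was smaller, 0.0157 (exact p = 0.00781).

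The density at the 3′ end differed with the strand of the next gene. Where the gene downstream lies on the same strand (a tandem pair, 2892 genes), the last 300 bp of the genes held 0.108 ± 0.0185 summits per kb. Where it lies on the other strand (a convergent pair, 3086 genes), they held 0.0190 ± 0.00392. The difference was 0.0887 ± 0.0185 and above 0 in 8 of 8 libraries (exact sign-flip permutation p = 0.00781), with a ratio of 4.37 to 8.60. By the 5′ edge, over the same eligible sequence, the difference was 0.0562 (exact p = 0.00781). This rests on 69 to 104 peaks a library in tandem and 13 to 22 in convergent pairs. The median gap to the next gene was 406 bp in tandem and 233 bp in convergent pairs, and its part in the difference was not tested. In tandem genes the density was 0.132 in the last 100 bp, 0.140 in the 100 bp before and 0.0489 in the next 100 bp.

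**Figure D2:**
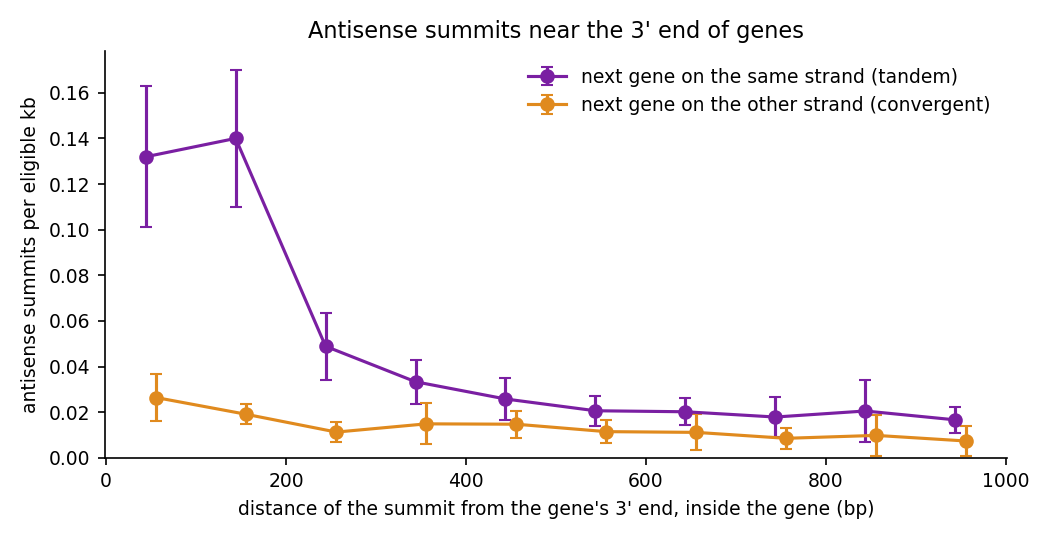
Antisense summits per eligible kb (mean ± SD, 8 libraries) in bins of 100 bp from the 3′ end of genes inwards, for all genes whose next gene is tandem or convergent. Tandem genes stand at 0.132 and 0.140 in the last 2 bins, against 0.0264 and 0.0191 in convergent genes.

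In tandem pairs the downstream gene often had a start peak of its own, facing away from the antisense peak. Start peaks were same-strand peaks that touched the gene-start window defined above. The downstream gene had one for 46.9% ± 6.71 of hosts with an antisense peak in the last 300 bp, and for 37.7% ± 1.47 of other tandem genes (difference 9.21 ± 6.40 points, above 0 in 7 of 8 libraries, exact sign-flip permutation p = 0.0156). The library below 0 was synHPRT1R YAC replicate 1, at -4.60 points. This comparison too was chosen after the data were seen. Counted library by library, there were 333 pairs of antisense and downstream start peaks, and the same locus could enter from each of the 8 libraries. The choice of strands and positions places such pairs back to back. The median distance between their 5′ edges was 311 bp (quartiles 227 and 453). The 5′ edge itself lay inside the host for 78.5% ± 4.71 of antisense peaks. For the others it lay past the host's end, in sequence outside the gene, and only the summit fell inside. Of the regions outside repeats found in all 8 libraries, HOS4, NUD1, LCL1 and YDR274C had their most frequent edge past the host's end. WSC4 had it inside the host.

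Most antisense regions were seen in few libraries. Of the 990, 669 (67.6%) had a peak in 1 library, 152 in 2, 62 in 3 and 12 in all 8. Of gene-start regions, 18.5% were in 1 library and 30.0% in all 8, and 73.2% of sense gene-body regions were in 1. Antisense regions were merged from antisense peaks alone. The other regions were merged from peaks of all classes and classed by their highest peak. An antisense peak was found again in the other replicate of its group in 27.9% to 30.8% of cases over the 4 groups, a gene-start peak in 76.0% to 78.5% and a sense gene-body peak in 28.4% to 29.8%. The difference from gene-start peaks was -48.4 ± 2.17 points, and the exact sign-flip permutation test gave p = 0.125, the smallest that 4 pairs allow. Weak peaks were found again less often in each class. Between a fold of 3 and 5 over background, as the authors' files give it, 40.8% of antisense, 28.8% of sense gene-body and 66.3% of gene-start peaks were found again. Between 1 and 2 the shares were 10.8% of antisense, 10.4% of sense gene-body and 37.9% of gene-start peaks. Between 5 and 10 they were 50.7% of antisense, 57.0% of sense gene-body and 83.1% of gene-start peaks, so the order of antisense and sense gene-body peaks differed between bins.

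**Figure D3:**
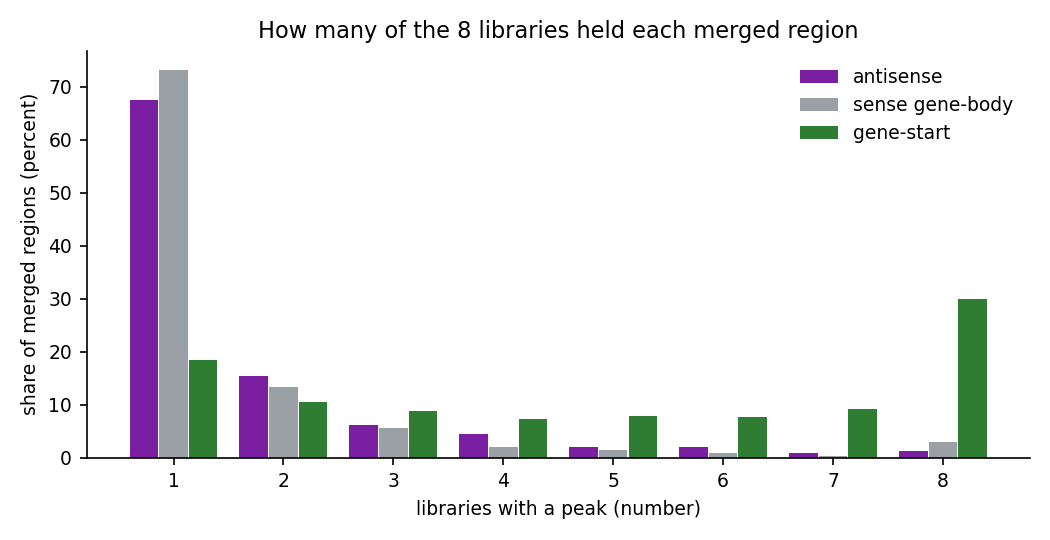
Share (percent) of merged regions by the number of libraries, of 8, that had a peak there, for antisense, sense gene-body and gene-start regions. 67.6% of antisense and 73.2% of sense gene-body regions were in 1 library, and 30.0% of gene-start regions were in all 8. Antisense regions were merged from antisense peaks alone, the others from peaks of all classes.

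The folds were low. The median percentile of the fold among all native peaks of a library differed by -33.2 ± 2.95 points, antisense minus gene-start peaks, and was lower in 8 of 8 libraries (exact sign-flip permutation p = 0.00781). Against sense gene-body peaks it was 2.15 ± 2.17 points higher (7 of 8 libraries, exact p = 0.0391). Without retrotransposon hosts that difference was 0.286 (exact p = 0.695), which ended the call, and it was -0.542 without YRF1 hosts as well. The call also ended when any 1 library other than synHPRT1R YAC replicate 2 was left out (1.65 to 2.36, exact p up to 0.0781). The highest fold of an antisense peak was 17.7 and that of any native peak 49.99. The median fold was 2.17 for regions in 1 library and 4.78 for those in all 8.

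Of the 107 regions in at least 4 libraries, 24 lay in Ty retrotransposon genes, 8 in YRF1 genes and 75 in other hosts. Of those 75, 66 had a tandem gene downstream, and 58 of these lay within 300 bp of the host's 3′ end. Tandem hosts thus made up most of the frequently seen regions outside repeats. Over all 990 regions, 43 lay in Ty genes, 8 in YRF1 genes and 939 in other hosts. Of the 990, 403 lay within 300 bp of the 3′ end of a tandem host. Among protein-coding genes, 2892 had a tandem and 3086 a convergent gene downstream. These shares were not compared by a test.

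HOS4 encodes a subunit of the Set3 histone deacetylase complex. The antisense fold at its 3′ end was 14.3 and 13.9 in synHPRT1R YAC, 10.0 and 8.26 in synHPRT1 YAC, 16.3 and 11.5 in synHPRT1R integrated, and 14.0 and 11.3 in synHPRT1 integrated libraries. This was the highest median of the 12 regions found in all libraries, 12.7, at a median percentile of 76.3. The region lies at chrIX:154605-154974 on the minus strand, and its most frequent edge was 85 bp past the end of HOS4. The next gene, COX5B, encodes the hypoxic form of a cytochrome c oxidase subunit and had a start peak in all 8 libraries.

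NUD1 encodes a scaffold of the spindle pole body used in mitotic exit. The antisense fold at its end (chrXV:1039167-1039418, minus strand) was 4.58 and 4.73 in synHPRT1R YAC, 7.96 and 3.76 in synHPRT1 YAC, 3.92 and 10.7 in synHPRT1R integrated, and 9.56 and 6.86 in synHPRT1 integrated libraries. The groups overlapped in both contrasts. Its downstream gene, ALD4, encodes a mitochondrial aldehyde dehydrogenase and had a start peak in 8 libraries. WSC4, a member of the WSC family of membrane sensors, had 1.55 and 6.98 in synHPRT1R YAC, 3.54 and 5.91 in synHPRT1 YAC, 5.32 and 6.50 in synHPRT1R integrated, and 11.0 and 5.74 in synHPRT1 integrated libraries (chrVIII:50318-50625, minus strand). Again all groups overlapped. RIM101, the pH-response repressor downstream of it, had a start peak in 5 libraries.

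LCL1, a small gene named for long chronological lifespan, was the 1 region of the 12 whose fold separated the sequences. It stood at 4.77 and 4.34 in synHPRT1R YAC and 3.79 and 3.95 in synHPRT1R integrated libraries, against 7.43 and 11.6 in synHPRT1 YAC and 5.40 and 17.3 in synHPRT1 integrated libraries (chrXVI:453400-453616, plus strand). The mean fold was 4.21 ± 0.439 in synHPRT1R and 10.4 ± 5.25 in synHPRT1 libraries (SD, n = 4 each, log2 difference -1.17, exact permutation p = 0.0286). This is the smallest p that 4 against 4 libraries allow. Among the 1284 native regions with a peak in all 8 libraries, 1.64% were lower and 1.25% higher in synHPRT1R without overlap, beside 1 and 0 of the 12 antisense regions, a number too small to set against those shares. After Benjamini-Hochberg adjustment over the 1284, the lowest p was 0.933. YDR274C, an open reading frame without an assigned function, had 5.44 and 1.88 in synHPRT1R YAC, 3.83 and 8.69 in synHPRT1 YAC, 7.25 and 1.62 in synHPRT1R integrated, and 2.69 and 3.94 in synHPRT1 integrated libraries. The region lies at chrIV:1011572-1011838 on the plus strand. It was the member of these 5 with a convergent gene downstream, DON1, which had a start peak in none.

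**Figure D4:**
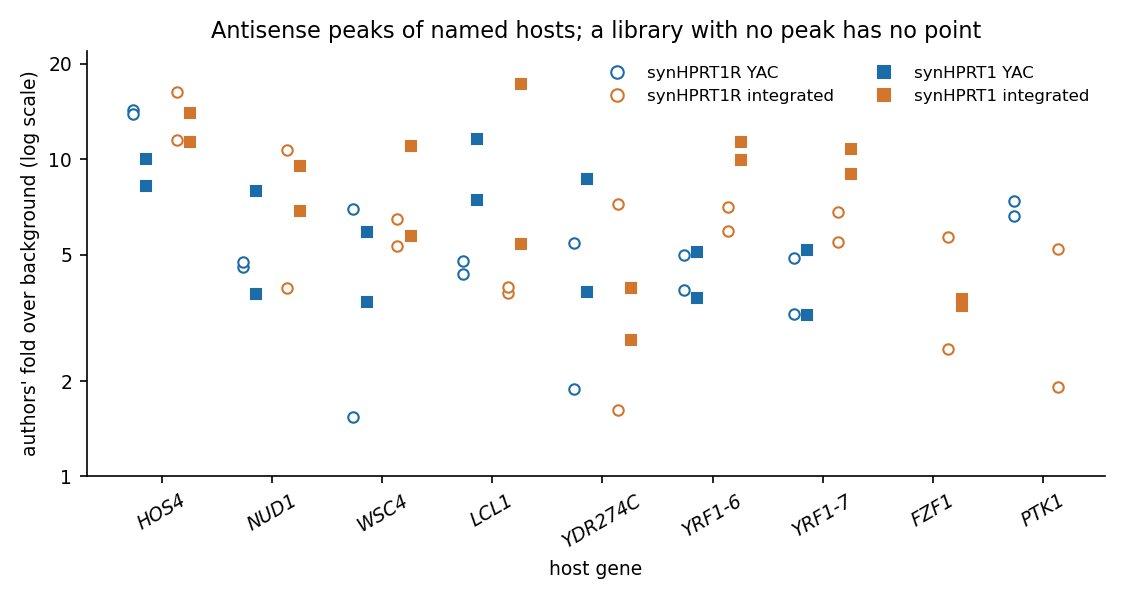
Fold over background, as the authors' files give it (log axis), of the antisense peak in each library for 9 hosts: the 5 outside repeats found in all libraries, 2 YRF1 copies, and FZF1 and PTK1. HOS4 lies at 8.26 to 16.3, FZF1 has points only in integrated libraries and PTK1 only in synHPRT1R libraries.

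Fewer antisense peaks were called in YAC than in integrated libraries. Counts were 175 and 216 in synHPRT1R YAC and 188 and 178 in synHPRT1 YAC, against 229 and 250 in synHPRT1R integrated and 246 and 244 in synHPRT1 integrated libraries, without overlap. As a share of native peaks this was 6.23% ± 0.524 in YAC libraries, against 7.59% ± 0.367 in integrated ones (SD, n = 4 each). The difference was -1.36 points (exact permutation test, two-sided, p = 0.0286, the smallest that 4 against 4 allow). Adjusted over the 4 classes of peak, p was 0.0571. With equal list lengths the difference was -0.943 (exact p = 0.0571), with only peaks of a −log10 q of at least 10 it was -1.07 (exact p = 0.0571), and with the insert inside chromosome XI and that chromosome left out it was -1.33 (exact p = 0.0571), so the call was lost in each. It was also lost without synHPRT1R integrated replicate 1 (-1.49) or 2 (-1.41) and without synHPRT1 integrated replicate 1 (-1.21) or 2 (-1.31), each at exact p = 0.0571. The lowest and highest shares of a library were 5.82% (exact 95% binomial interval 5.01 to 6.72, counting error only) and 8.02% (7.08 to 9.04).

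Both rare and shared regions were fewer in YAC libraries. Regions found in no other library numbered 73.0 ± 7.75 in YAC and 94.3 ± 12.2 in integrated libraries, and regions shared with at least 1 other library 116 ± 11.4 in YAC and 148 ± 8.54 in integrated libraries (exact permutation p = 0.0286 for each). Both counts are parts of the antisense total of each library, so they are not results separate from its lower number in YAC libraries. Their p-values were not adjusted, and the same split of all native regions is not given. The share of gene-start peaks was 80.0% in YAC and 78.2% in integrated libraries (exact p = 0.0286, adjusted 0.0571). Sense gene-body peaks made 9.71% in YAC and 10.2% in integrated libraries (difference -0.454, exact p = 0.314). By number, sense gene-body peaks averaged 294.5 in YAC and 324.25 in integrated libraries (exact p = 0.0571), and antisense peaks 189.25 in YAC and 242.25 in integrated libraries (exact p = 0.0286). The adjusted p over the 4 classes was 0.114 for both. The background of the lists, in tags at a position, averaged 46.2 in YAC and 48.6 in integrated libraries for the plus strand (exact p = 0.429), and 81.5 in YAC and 76.2 in integrated libraries for the minus strand (exact p = 0.486). Between the sequences the antisense share was 6.85% ± 0.710 in synHPRT1R and 6.97% ± 1.06 in synHPRT1 libraries (difference -0.118, exact p = 0.886).

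**Figure D5:**
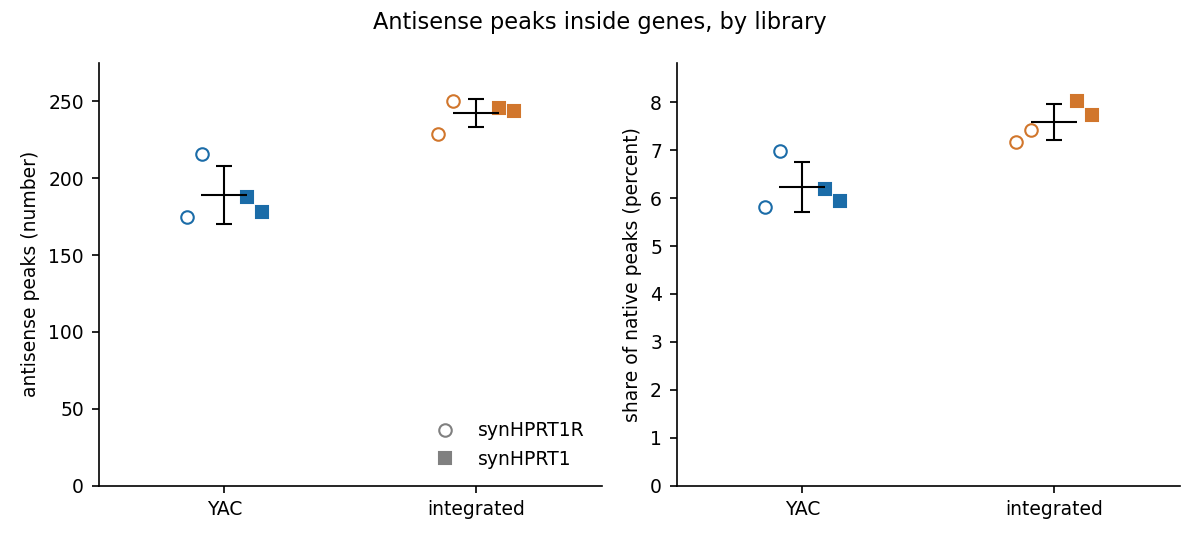
Number of antisense peaks (left) and their share of native peaks in percent (right) in each library, with the mean ± SD of the 4 YAC and the 4 integrated libraries. The YAC libraries lie at 175 to 216 peaks and the integrated ones at 229 to 250.

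Presence separated the contexts in 6 antisense regions, all with a peak in 4 of 4 integrated and 0 of 4 YAC libraries. That is 0.606% of antisense regions, against 0.201% of all native regions, which were merged from peaks of all classes. All but 1 of the 6 are copies of 1 sequence, so the 0.606% does not count separate sequences. By sequence the 990 antisense regions formed 937 families, and the native share was not counted in this way. The opposite pattern was seen in 0 antisense regions, against 0.144% of native ones. FZF1, an activator of sulfite resistance genes, was the 1 outside repeats. It had no peak in YAC libraries, against a fold of 5.69 and 2.52 in synHPRT1R integrated and 3.45 and 3.62 in synHPRT1 integrated libraries (chrVII:22884-23159, minus strand). HXK2, which encodes the main hexokinase during growth on glucose, lies downstream and had a start peak in 8 libraries.

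The other 5 were YRF1-1, YRF1-2, YRF1-3, YRF1-4 and YRF1-5, copies of the helicase gene of the subtelomeric Y′ element. They belong to 1 family of 10 regions that share at least 50% of their 31-base words, so they count as 1 sequence and reads cannot be assigned to a copy with certainty. Of the 8 regions in YRF1 genes, 6 had a peak in exactly 4 libraries, and these 5 were among them. The remaining one of the 6 did not separate the contexts. At YRF1-6 and YRF1-7, 2 copies annotated on the minus strand, peaks were listed in all 8 libraries. There the fold at YRF1-6 was 3.88 and 4.98 in synHPRT1R YAC and 3.64 and 5.09 in synHPRT1 YAC, against 7.10 and 5.92 in synHPRT1R integrated and 11.3 and 9.97 in synHPRT1 integrated libraries. The 4 YAC libraries averaged 4.40 ± 0.745, against 8.58 ± 2.50 in the 4 integrated ones (SD, log2 difference -0.93, exact permutation p = 0.0286), and at YRF1-7 it was 4.14 ± 1.04 in YAC and 8.01 ± 2.34 in integrated libraries. These were the only 2 of the 12 antisense regions to separate the contexts by fold, both lower in YAC libraries. They belong to the same family of 10 regions and so count as 1 sequence. That is too small a number to set against the shares of native regions. Lower folds in YAC libraries without overlap were seen in 3.82%, and higher ones in 3.35%, of the 1284 native regions found in all libraries, and the lowest adjusted p over these was 0.399. The pileups recovered at YRF1-6 were 207 and 208 tags in synHPRT1R YAC and 177 and 224 in synHPRT1 YAC, against 368 and 281 in synHPRT1R integrated and 576 and 475 in synHPRT1 integrated libraries. Background was lower on the plus strand, where YRF1-6 and YRF1-7 have their antisense peaks, at 41.0 to 52.7 tags. On the minus strand, where the 5 copies without YAC peaks have theirs, it was 67.0 to 94.8 tags. Whether background has a part in the missing YAC peaks was not tested.

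For the sequences, PTK1 alone separated the libraries, with a peak in 4 of 4 synHPRT1R and 0 of 4 synHPRT1 libraries. That is 0.101% of antisense regions, against 0.0862% of native regions, and the opposite pattern was seen in 0 antisense and 0.0574% of native regions. With a −log10 q of at least 10 or equal list lengths, 0 regions separated the sequences. Without synHPRT1R YAC replicate 1 or 2 the number was 2 and 3, without synHPRT1R integrated replicate 1 it was 3, without synHPRT1 YAC replicate 1 or 2 it was 4 and 3, and without synHPRT1 integrated replicate 1 it was 6. PTK1 encodes a protein kinase that acts in polyamine transport. Its antisense fold was 6.64 and 7.41 in synHPRT1R YAC and 5.23 and 1.91 in synHPRT1R integrated libraries, inside the gene body and 421 bp from the host's 5′ end (chrXI:69787-70117, plus strand). With Fisher's exact test over 6963 native regions and Benjamini-Hochberg adjustment, 0 regions passed for context or sequence, and 24 and 10 had an unadjusted p under 0.05.

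The median length of hosts was 1416 bp, against 1200 bp over all protein-coding genes. A start peak of its own was called for 46.2% ± 2.98 of hosts and for 40.8% ± 1.70 of other genes (difference 5.39 ± 4.34 points, above 0 in 6 of 8 libraries, exact sign-flip permutation p = 0.0313). Against other genes at least as long as the median host the difference was 11.5. Hosts of every length were kept there, so lengths were not matched. Without retrotransposon hosts, and with other genes of every length, the difference was 2.31 (exact p = 0.125), which ended the call. Without retrotransposon and YRF1 hosts it was 3.39 (exact p = 0.0313). When 1 library was left out, the call held without synHPRT1R integrated replicate 1 or 2 and ended without any of the other 6 (4.57 to 5.48, exact p = 0.0625). Of the 887 hosts, 788 had 1 region and 99 had more, at most 3. BAP2, an amino acid permease, PRY3, a sterol-binding cell wall protein, YPS3, an aspartic protease, and GSY2, a glycogen synthase, had 3 each. FUN12, the translation initiation factor eIF5B, was among the hosts with 2 and comes first of them by systematic name. In PRY3 the 3 regions were in 1, 3 and 4 libraries, in YPS3 in 6, 1 and 1, and in BAP2 and GSY2 each was in 1 library.

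By function, the share of genes that hosted an antisense region is set beside the 14.8% of all 6002 genes, without a test and with lists chosen when results of these data were known. Hexose transporters and sensors hosted in 7 of 19 (36.8%, median length 1704 bp). RGT2, a glucose sensor of the plasma membrane, had an antisense peak in 7 libraries, at a fold of 4.47 in synHPRT1R YAC replicate 2, 4.78 and 1.78 in synHPRT1 YAC, 3.67 and 2.28 in synHPRT1R integrated, and 6.43 and 2.72 in synHPRT1 integrated libraries. Here too the next gene, ARF2, is tandem and had a start peak in 8 libraries. HXT3 had an antisense peak in 2 libraries and HXT11, whose region shares its sequence with that of HXT9, in 3.

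Phosphate genes hosted in 8 of 26 (30.8%). VTC1, of the vacuolar polyphosphate polymerase complex, was in 4 libraries at a median fold of 4.59. PHO5, an acid phosphatase whose antisense RNA is a textbook case, was in 3 libraries, all synHPRT1, at 3.62 in synHPRT1 YAC replicate 2 and 7.06 and 7.37 in synHPRT1 integrated libraries. PHO5 itself had a start peak in none. VTC3 was also in 3 libraries and PHO4, the activator of the phosphate response, in 2. HMS2, another host known for antisense RNA, was in 3 libraries at a median fold of 1.66. Of 8 genes listed for a known antisense RNA, PHO5 and HMS2 were the 2 hosts (25%), and neither was in 4 or more libraries. The rule leaves out peaks inside an annotated antisense RNA, so a gene opposite to one is less able to become a host. The 25% therefore does not tell how often a known antisense RNA was seen.

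Glycolytic and gluconeogenic genes hosted in 7 of 27 (25.9%). CDC19, pyruvate kinase, had antisense peaks in 6 libraries, at 4.42 and 2.23 in synHPRT1R YAC, 6.26 and 9.64 in synHPRT1R integrated and 17.7 and 1.74 in synHPRT1 integrated libraries, with none listed in synHPRT1 YAC. The value of 17.7 was the highest of any antisense peak. CDC19 had its own start peak in 8 libraries, and its antisense edge lay 376 bp from the host's 3′ end. FBP1, fructose-1,6-bisphosphatase, was in 2 libraries, and PDC1 and TDH3, both glycolytic or fermentative enzymes, in 1 each.

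Heat-shock and chaperone genes hosted in 7 of 30 (23.3%), of which HSP30 was in 3 libraries and SSA3, SSB1 and HSP10 in 1 each. Amino acid synthesis genes hosted in 13 of 66 (19.7%). Among them MET16, the sulfate assimilation reductase, was in 5 libraries, GDH3, a glutamate dehydrogenase, in 4, and LYS20 and TRP1 in 2 each. Cell wall and flocculation genes hosted in 7 of 35 (20.0%), with FLO1 and TIR2 in 2 libraries and FLO9 and PIR1 in 1. Motor and cytoskeleton genes hosted in 5 of 22 (22.7%), at a median length of 3498 bp, with MYO3 in 2 libraries and KIP1, KIP2 and NUM1 in 1. Mating genes hosted in 5 of 30 (16.7%), where SAG1, the alpha-agglutinin that cells of mating type a do not use, was in 3 libraries and MSG5 in 2.

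Meiosis and sporulation genes hosted in 7 of 44 (15.9%), close to the share of all genes, with SMK1 in 2 libraries and MSH4, REC114 and GIP1 in 1 each. Galactose and sugar genes hosted in 1 of 17 (5.88%), MAL13, and RNA polymerase II and Mediator genes in 1 of 37 (2.70%), SRB2, at a median length of 734 bp.

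Of the strain's markers, the mating type a genes MFA1, MFA2, STE6 and AGA2 had start peaks in 8 libraries, STE2 in 2 and BAR1 in 0. The alpha-type genes MF(ALPHA)2, STE3 and SAG1 had none, and MF(ALPHA)1 was called in 1 library. At the auxotrophic loci, URA3 and MET17 had one in 0 libraries, LEU2 in 4 and HIS3 in 6.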

How the data were processed

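The submitters' processing notes name MACS2 2.1.0, Bowtie2 2.2.9, bcl2fastq 2.20, deepTools 3.5.0, SAMtools 1.9 and build sacCer3, and what each tool did is not given in the sources used. Per the labels' protocols, 5 µg of RNA went into each library and 20 cycles of PCR followed, with no molecular identifiers mentioned, so intervals cover counting error only. The authors deposited 32 peak lists, by strand and reference, per library and not pooled, of which the 16 with the synthetic sequence as its own contig were the main ones. In the deposited lists the fold is the ratio of signal at the summit over background, 2 columns give −log10 of the peak's p-value and of its q-value, and the score is 10 times the −log10 q with decimals dropped and was not used. They are the authors' values, used to rank and filter peaks within a list. No deposited −log10 q was under 1.31. The lists give no read totals, and depth is thus unknown as a count. Summit pileups, solved from fold and p, came out whole within 0.1 for 98.7% of native peaks.

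Forward lists were taken as the plus strand. Genes and sequence came from RefSeq R64, the assembly of sacCer3, and peaks of 16 nuclear chromosomes were used. Overlapping peaks of 1 strand were merged over libraries. Antisense regions were merged from antisense peaks alone. Native regions were merged from peaks of all classes, and the gene-start, sense gene-body and intergenic regions among them were classed by the peak of highest pileup. Comparisons used exact two-sided permutations of 70 arrangements, exact sign flips or Fisher's exact test (Python 3.11.15, SciPy 1.17.1, statsmodels 0.14.6). The functions were tested on simulated data. Members and gene lists were chosen with earlier results of these data known. Named were the regions in all 8 libraries, those in 4 of 4 against 0 of 4, the 5 hosts with most regions (ties by systematic name), hosts of known antisense RNA and up to 4 hosts of each other list, and other values were named after being seen. Alternatives covered the q threshold, gene set, window, reference, repeats, list length, ranking, overlap, distances, leaving out each library and a replicate block. Those by the 5′ edge and without YRF1 hosts were added after seeing the data.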

Additional observations from a re-analysis of the deposited data

Results flagged for a closer look

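In 6 measures, the lowest and highest of the 4 libraries of each context, the 4 of each sequence and all 8 were compared with the rest of their set, 30 sets in all. Chance flags about 1 in 20 such sets. The share of antisense peaks with a pyrimidine-purine pair at the 5′ edge was 69.6% in synHPRT1R integrated replicate 2, below 72.5% to 72.9% in the other integrated libraries. The density in the last 300 bp of tandem hosts was 0.115 summits per kb in synHPRT1R YAC replicate 2, above 0.0842 to 0.0891 in the other YAC libraries. The contrasts of fold, host start peaks and density were also compared between contexts and between sequences, 10 exact permutation tests in all, and none had a p under 0.05.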

How the results depend on the processing

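The deposited read depth is unknown, and 4 against 4 libraries leave few arrangements. The 3′ densities and the gap to gene-start folds kept direction and call under each alternative run. By the 5′ edge, added after seeing the data, the density differences were 0.0157 (last 25%) and 0.0562 (tandem minus convergent), each more than 1.5 times smaller. The 990 regions were 693 with −log10 q of at least 10 and 839 by the 5′ edge. With −log10 q of at least 10, the antisense share was 5.68%, YAC minus integrated -1.07, antisense minus sense gene-body percentile 0.460, and 0 regions separated the sequences. With the insert inside chromosome XI and that chromosome left out, YAC minus integrated was -1.33 (exact p = 0.0571) and 0 regions separated the sequences. PTK1, the only region to separate them in the main run, lies on that chromosome and was thus left out with it. Equal list lengths gave -0.943, a percentile difference of 1.30 and 0 regions. Without retrotransposon hosts the percentile difference was 0.286, the host start difference 2.31 (3.39, exact p = 0.0313, without YRF1 hosts too) and 7 regions were in all 8 libraries. Ranking by −log10 p gave a percentile difference of 1.05, and by pileup -0.603. Counted as peaks, synHPRT1R minus synHPRT1 was 3.5. Alternatives added after seeing the data moved some values. By the 5′ edge the share was 5.58%, and without retrotransposon and YRF1 hosts synHPRT1R minus synHPRT1 was 0.0167, the percentile difference -0.542, with 5 regions in all 8 libraries and 1 separating the contexts. The cause was not tested.

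Replicate numbers did not pair the samples (correlations -0.0715 to 0.00679 between 6 pairs of groups). With a replicate block, YAC minus integrated was -1.36 with exact permutation p = 0.0556, the same p as with labels permuted within sequence, and synHPRT1R minus synHPRT1 was -0.118 (exact p = 0.889).

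Leaving out each library gave 6.75% to 7.07% for the share, -1.61 to -1.21 for YAC minus integrated (exact p up to 0.0571), -0.460 to 0.232 for synHPRT1R minus synHPRT1, 1.65 to 2.65 (exact p up to 0.0781) and -33.9 to -32.7 for the percentile differences, 4.57 to 6.41 (exact p up to 0.0625) for host start peaks, 0.0242 to 0.0264 and 0.0854 to 0.0921 for the densities, -49.4 to -47.8 for peaks found again, 878 to 926 regions, 12 to 16 in all libraries, 6 to 9 separating contexts and 1 to 6 separating sequences.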

Other observations

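The annotation names 7 non-coding RNAs that run antisense to protein-coding genes, and the rule leaves out peaks inside them. A start peak was listed for the RNA opposite GAL10 (YNCB0008W) in 2 libraries and for SUT169, opposite SPS100, in 2. None was listed for TBRT, opposite TAT1, for RME2, opposite IME4, for RME3, opposite ZIP2, for YNCM0001W, opposite PHO84, or for YNCP0002W, opposite GAL4. Peaks elsewhere in YNCM0001W, which also runs opposite TUB3 and YML122C, were listed on its strand in 7 libraries, and a peak anywhere in the RNA opposite GAL10 in 3.

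Factors known to limit antisense RNA were themselves read by their start peaks, with 28 of 30 listed symbols matched in the annotation. EAF3 and RPD3, subunits of the Rpd3S complex, the histone chaperones SPT6 and POB3, the remodeller CHD1 and the deacetylase HDA1 had a start peak in all 8 libraries. XRN1, RRP6, SEN1, MTR4, RCO1, ISW1 and HDA3 had one in none. That is 6 and 7 of 28, beside 20.6% of all genes in all 8 and 33.8% in none. Of the 28, 5 were hosts of an antisense region (17.9%, beside 14.8% of all genes), NAB3, SPT6, POB3 and ISW1 in 1 library each, and RSC8 with 1 region in 2 libraries and another in 1.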
